A study of Mus musculus with 15 samples.

Results

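The Notch pathway was followed through 36 genes that encode its receptors, ligands, modifying enzymes, nuclear complex and targets. They were taken from a fixed list of gene symbols, each read from the probe set of that gene with the highest mean over all arrays in the fit. Of the 36 genes, 35 were measured, out of 18193 genes in all, and Maml3 was not analysed here. The samples were RNA pools from pituitaries of newborn mice at postnatal day 1, with 1 Affymetrix Mouse Genome 430 2.0 array per pool. Pit1 dw/dw mice (5 pools) were homozygous for the Snell dwarf allele of Pit1, a constitutive missense mutation, and Pit1 +/+ mice (5 pools) were wild type for the gene. Both were on the DW/J background and were fed a high fat chow, so the comparison lies within 1 strain. The labels used here give neither the number of pups in a pool nor their sex. Xist, the RNA made from the inactive X of female cells, read 3.69 to 4.20 in Pit1 dw/dw pools 2 and 3 and Pit1 +/+ pool 4, and 9.60 to 11.14 in the other 7 pools. The low pools thus were 2 of 5 in Pit1 dw/dw and 1 of 5 in Pit1 +/+. A further fit left out pools with Xist under 5. This cut was applied to all 15 arrays in the fit, so arrays not reported here could also be left out. No member passed in that fit (limma), but none passed with all pools either. Only 28 of all genes passed in it, against 140 with all pools (limma), so that fit does not test a part of sex in the results.

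Notch receptors are single-pass membrane proteins that bind Delta and Jagged ligands on neighbouring cells. Ligand binding lets an ADAM protease and then the gamma-secretase complex cut the receptor, and the freed intracellular domain joins RBPJ and a Mastermind protein on DNA to switch on target genes such as those of the Hes and Hey families. In the mouse pituitary the pathway is active in progenitors, where Hes1 is known to hold back differentiation, and it declines as hormone cells form. Pit1 is a POU-domain transcription factor needed by the cells that make growth hormone, prolactin and thyrotropin.

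To show what the core letters of the RBPJ motif look like in a target promoter, windows were taken for the 3 of 6 listed targets that the RefSeq promoter table holds (Hes5, Hey2 and Nrarp, GRCm38.p6). The windows were searched for TGGGAA, the core of the RBPJ motif, on both strands, so that TTCCCA marks the other strand. Each sequence runs 5′ to 3′ on the gene's strand, from 250 bases before the start of transcription to 10 bases after it, and capitals mark the motif. Hes5 lies on the plus strand at chr4:154960673-154960932, Hey2 on the minus strand at chr10:30842774-30843033 and Nrarp on the plus strand at chr2:25180508-25180767.
Hes5: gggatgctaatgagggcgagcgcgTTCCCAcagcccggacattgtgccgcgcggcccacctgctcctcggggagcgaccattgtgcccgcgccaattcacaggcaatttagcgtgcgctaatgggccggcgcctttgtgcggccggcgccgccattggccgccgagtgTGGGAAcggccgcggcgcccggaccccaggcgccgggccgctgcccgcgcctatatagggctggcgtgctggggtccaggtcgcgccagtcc
Hey2: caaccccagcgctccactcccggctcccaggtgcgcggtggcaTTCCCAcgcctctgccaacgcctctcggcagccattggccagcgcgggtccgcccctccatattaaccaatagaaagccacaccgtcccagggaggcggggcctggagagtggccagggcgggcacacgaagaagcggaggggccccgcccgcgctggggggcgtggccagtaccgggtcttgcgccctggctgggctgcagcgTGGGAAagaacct
Nrarp: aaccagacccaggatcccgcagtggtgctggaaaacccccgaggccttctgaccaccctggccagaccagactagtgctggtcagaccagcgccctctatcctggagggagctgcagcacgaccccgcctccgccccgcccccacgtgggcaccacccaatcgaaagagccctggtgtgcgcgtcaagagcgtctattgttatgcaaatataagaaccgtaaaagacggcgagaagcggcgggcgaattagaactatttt
The Hes5 stretch held the motif 226 and 82 bases before the start, and the Hey2 stretch held it 207 and 3 bases before the start, counted to its first base. These letters were not in the Nrarp window. Windows of 300 bases held the motif at least once for 25.6% of 32851 promoters and at least 2 times for 3.79%. Of the 30 listed genes with a window, 10 held it. A match is a description of the letters, not of a bound site.

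The pools matched their labels by the hormone genes that Pit1 controls. Growth hormone (Gh) read 7.15 to 10.31 in Pit1 dw/dw pools, against 14.15 to 14.28 in Pit1 +/+ pools, on the log2 scale of the array signal. The thyrotropin subunit Tshb read 6.20 to 7.01 in Pit1 dw/dw pools and 11.67 to 12.29 in Pit1 +/+ pools. Of 5 measured marker genes of the Pit1 lineage all 5 fell, and of 6 gonadotroph genes 3 rose (Gnrhr, Nr5a1 and Nr0b1), while the hormone subunit genes Fshb, Cga and Lhb had changes of -0.70, -0.55 and -0.07 that did not pass. No gene of the progenitor, endothelial, mural cell, bone and cartilage, or sensory ganglion lists was called (limma). An unadjusted p under 0.05 was reached by 1 of 9, 2 of 10, 0 of 10, 1 of 8 and 0 of 11 of them, beside 8.46% of all genes (limma). The corticotroph and melanotroph, neural lobe and oral epithelium lists had no gene called either, with 2 of 5, 1 of 10 and 1 of 7 at that unadjusted p. The genotype entry of Pit1 +/+ pool 1 is at odds with its other labels. That pool was kept where its title puts it, and its Gh signal of 14.22 lay among those of the other Pit1 +/+ pools. The mean level over 11 measured sensory ganglion and Schwann cell genes was 7.38, 8.67 and 7.20 in Pit1 dw/dw pools 2, 3 and 5 and 9.26 in Pit1 +/+ pool 3, against 6.09 or less in the other 6 pools. Prph, a neuronal gene of that list, was above 7 in the same pools except Pit1 dw/dw pool 5. Array medians ran from 4.31 to 4.43, and the number of arrays limits the precision.

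No Notch pathway gene passed the test in Pit1 dw/dw against Pit1 +/+, the comparison that asks which RNAs of the newborn gland differ when Pit1 is not functional. Among all genes 0.77% passed, 0.165% higher and 0.605% lower (limma, Benjamini-Hochberg adjustment over all genes, threshold 0.05). A single member, the receptor gene Notch2, had an unadjusted p under 0.05 (limma), beside 8.46% of all genes. The Pit1 dw/dw and Pit1 +/+ pools overlapped for all 35 members, and 2.78% of all genes had groups that did not overlap. For a list of only 35 genes, counts of 0 are near the shares of all genes that passed or did not overlap. Neither count thus sets the members apart from other genes.

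The log2 changes of the 35 members ran from -0.18 (Maml2) to 0.41 (Dtx1), with a median of 0.02, beside -0.02 over all genes. The estimates were above 0 for 22 members and below it for 13, beside 8216 and 9977 of all genes. Without Pit1 +/+ pool 5, estimates were above 0 for 18 members. With all pools the smallest adjusted p was 0.47, that of Notch2 (limma). All 35 intervals at 95% lay between -0.83 and 0.99, that is, within a 2-fold change either way. Intervals and standard errors (SE) use the spread over all 15 arrays in the fit, not only the 10 compared. For 21 members the interval lay within 0.5 of 0 on the log2 scale. Among them are Hes1, Maml2, Dll1, Dll3, Dll4 and Numbl, whose mean signals were under the median of all array values, 4.37. RMA compresses differences between such dim probe sets, so their intervals do not bound the change in RNA. A p above the threshold does not show equal levels, and smaller changes than these bounds remain possible. In pooled glands, fewer cells of a type and less RNA per cell cannot be told apart.

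**Figure D1:**
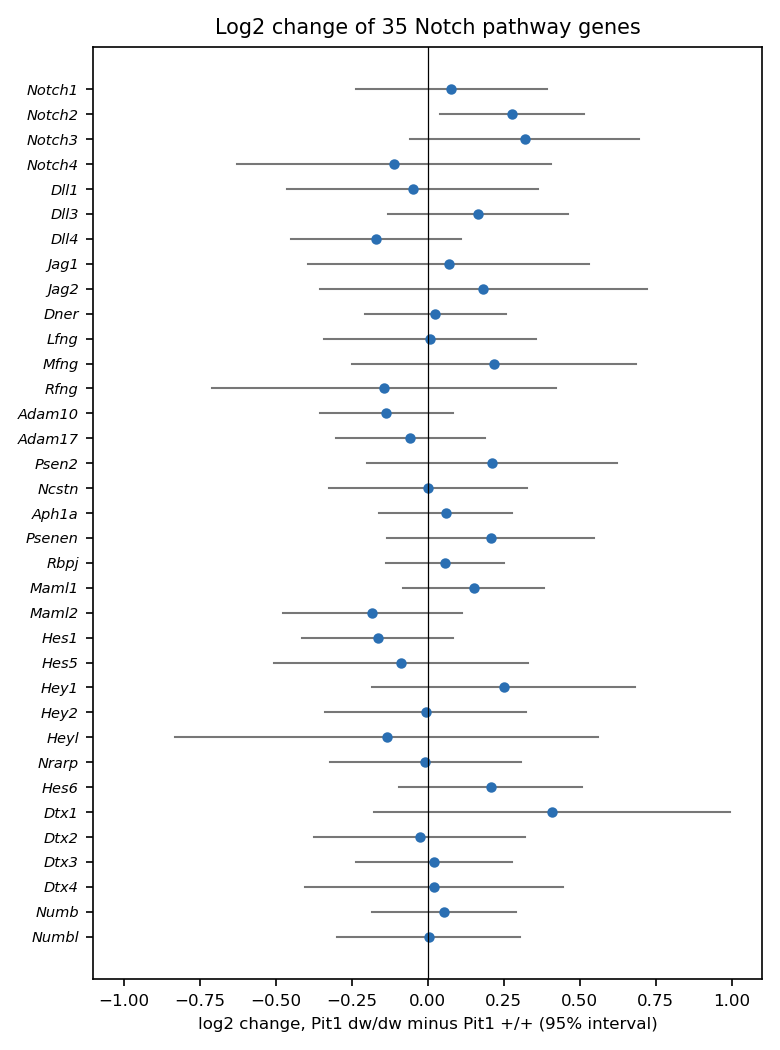
Log2 change (x axis) of 35 Notch pathway genes (rows, ordered by role) in Pit1 dw/dw minus Pit1 +/+. Points are limma estimates over 5 pools a group and bars their 95% intervals, which all lie between -0.83 (Heyl) and 0.99 (Dtx1); no gene passed the test.

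None of the 4 receptors passed, and 3 of them (Notch1, Notch2 and Notch3) had the higher mean signal in Pit1 dw/dw. Notch2, a receptor expressed in pituitary progenitors, read 12.22, 12.19, 12.01, 12.23 and 11.91 in Pit1 dw/dw pools, against 11.87, 11.87, 11.61, 11.84 and 11.98 in Pit1 +/+ pools. In Pit1 dw/dw 4 pools lay above every Pit1 +/+ pool, and pool 5 lay inside the Pit1 +/+ range. The change was 0.28 ± 0.11 (SE; 95% interval 0.04 to 0.52; limma, unadjusted p = 0.0247, adjusted p = 0.47). A dimmer Notch2 probe set had a change of 0.02.

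Notch3, a receptor of mural cells around blood vessels, read 8.17, 8.24, 8.12, 8.87 and 8.51 in Pit1 dw/dw pools, against 8.23, 7.45, 8.47, 8.26 and 7.92 in Pit1 +/+ pools. Its groups overlapped, with the extremes in Pit1 dw/dw pool 4 and Pit1 +/+ pool 2, and the change was 0.32 ± 0.18 (SE; limma, adjusted p = 0.69). The mean level over 10 measured mural cell genes was 6.33 to 7.15 in Pit1 dw/dw pools and 5.80 to 7.35 in Pit1 +/+ pools, and its part in the Notch3 values was not tested.

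Notch1, the receptor of progenitors in many tissues, read 8.68, 8.62, 8.67, 8.61 and 8.54 in Pit1 dw/dw pools, against 8.74, 8.25, 8.77, 8.58 and 8.39 in Pit1 +/+ pools. All 5 Pit1 dw/dw pools lay inside the Pit1 +/+ range, with an SD of 0.06 beside 0.22, and the change was 0.08 ± 0.15 (SE; limma, adjusted p = 0.96). Notch4, a receptor of endothelium, read 7.27, 6.77, 6.998, 7.53 and 6.77 in Pit1 dw/dw pools, against 7.45, 6.88, 7.63, 7.65 and 6.29 in Pit1 +/+ pools. Again the Pit1 dw/dw pools lay within the Pit1 +/+ range, and the change was -0.11 ± 0.24 (SE; limma, adjusted p = 0.968). It was -0.33 without Pit1 +/+ pool 5 and 0.00 and 0.01 without Pit1 +/+ pools 3 and 4, so its direction was not fixed.

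None of the 5 Delta and Jagged ligands passed. Jag1, the Jagged ligand known from progenitors and vessels, read 10.13, 9.52, 9.54, 10.06 and 9.58 in Pit1 dw/dw pools, against 9.74, 8.87, 9.81, 9.88 and 10.18 in Pit1 +/+ pools. Pit1 +/+ pools held both the lowest and the highest value, and the change was 0.07 ± 0.22 (SE; limma, adjusted p = 0.981).

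Dll1, a Delta ligand shown by differentiating cells to their neighbours, read 4.37, 4.13, 3.93, 4.33 and 3.84 in Pit1 dw/dw pools, against 3.94, 4.23, 3.71, 4.39 and 4.56 in Pit1 +/+ pools. These values overlapped throughout and lay around the median of all array values, 4.37. The change was -0.05 ± 0.19 (SE; limma, adjusted p = 0.986).

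The other ligands gave changes of 0.18 for Jag2, 0.16 for Dll3, whose product acts mainly inside the signalling cell, and -0.17 for Dll4, the Delta ligand of endothelial tips. Jag2 spanned 6.55 to 7.40 in Pit1 dw/dw pools and 6.27 to 7.68 in Pit1 +/+ pools. Dner, a neuronal membrane protein described as a non-canonical Notch ligand, averaged 11.54 ± 0.06 in Pit1 dw/dw and 11.51 ± 0.19 in Pit1 +/+ (SD, n = 5 each), a change of 0.03.

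**Figure D2:**
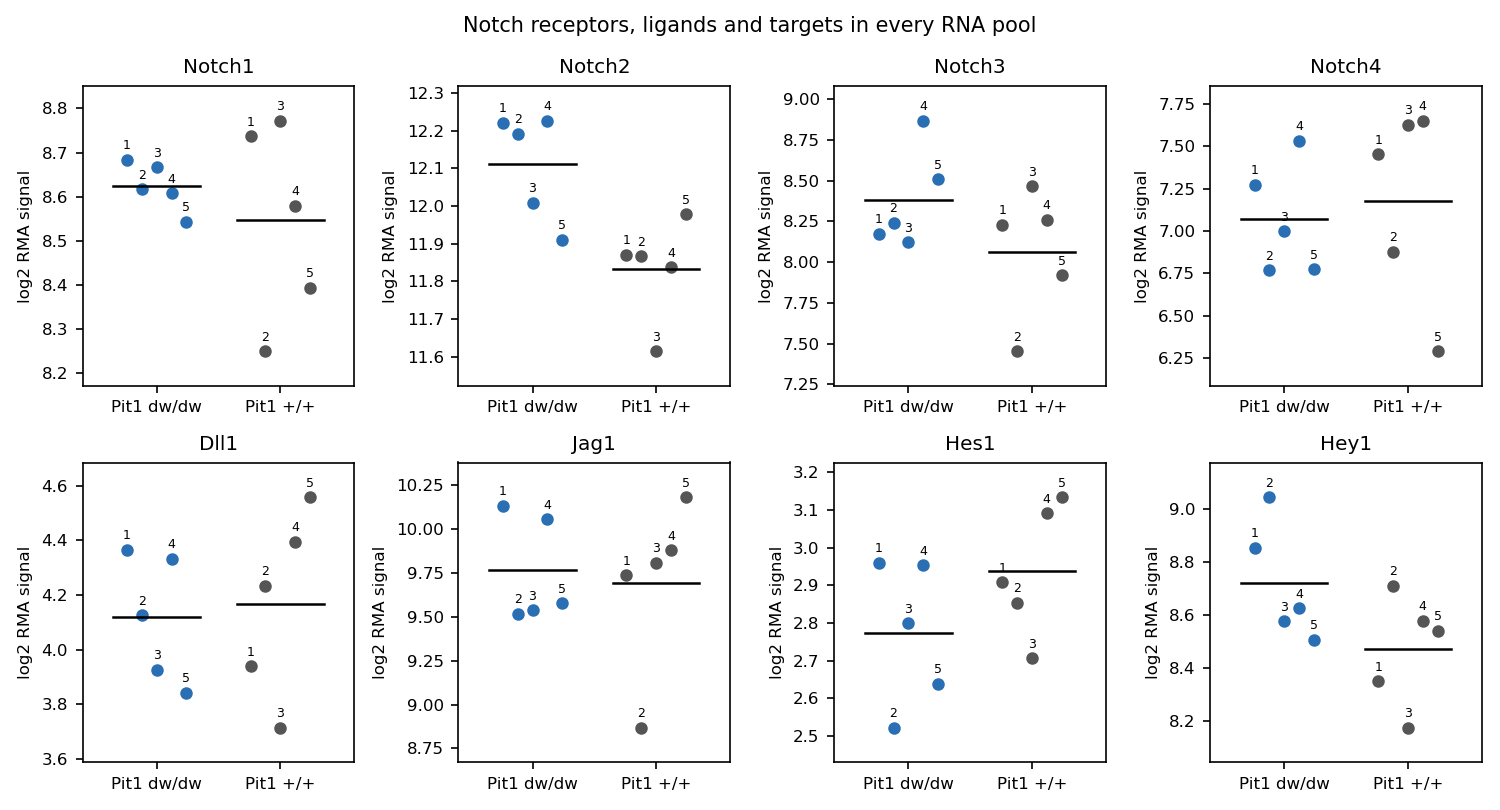
Log2 RMA signal (y axis, a separate range for each gene) of 4 receptors, 2 ligands and 2 target genes of the Notch pathway in every pool (points, numbered) of Pit1 dw/dw and Pit1 +/+, with group means as lines. The groups overlap in all 8 panels; for Notch2, 4 Pit1 dw/dw pools (12.01 to 12.23) lie above the highest Pit1 +/+ pool (11.98).

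The 3 fringe glycosyltransferases add sugars to the receptor that tune ligand choice. Their changes were 0.22 (Mfng), 0.01 (Lfng) and -0.14 (Rfng). Mfng averaged 7.36 ± 0.15 in Pit1 dw/dw and 7.15 ± 0.54 in Pit1 +/+ (SD, n = 5 each), and in Pit1 +/+ pool 5 it read 6.24, below the other 9 pools at 7.10 or more. Without that pool the Mfng change was -0.01. Rfng spanned 7.31 to 7.60 in Pit1 dw/dw pools, inside its Pit1 +/+ range of 7.05 to 8.03.

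The proteases that cut the receptor were represented by 6 genes, with changes of -0.14 to 0.21 and adjusted p-values of 0.826 or more (limma). Adam10, the enzyme of the first cut, averaged 10.07 ± 0.13 in Pit1 dw/dw and 10.21 ± 0.18 in Pit1 +/+ (SD, n = 5 each), and Adam17 had a change of -0.06. Among the gamma-secretase genes, the catalytic subunit gene Psen2 had a change of 0.21 and Psenen 0.21, while Aph1a (0.06) and Ncstn (0.00) stood closer to 0. Psenen read 9.36 to 9.77 in Pit1 dw/dw pools and 9.53 to 9.63 in 4 Pit1 +/+ pools, but 8.70 in Pit1 +/+ pool 5. Without that pool the change was 0.03 for Psenen and -0.15 for Ncstn.

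In the nuclear complex, Rbpj, the DNA-binding subunit, had the tightest Pit1 dw/dw values of all members. It averaged 9.07 ± 0.03 in Pit1 dw/dw and 9.01 ± 0.17 in Pit1 +/+ (SD, n = 5 each), and all 10 pools lay between 8.73 and 9.13. The Mastermind coactivators Maml1 and Maml2 had changes of 0.15 and -0.18. Numb and Numbl, which restrain the receptor, had changes of 0.05 and 0.00.

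Of the 6 target genes, none passed. Hey1, a basic helix-loop-helix repressor switched on by Notch, read 8.85, 9.04, 8.57, 8.62 and 8.51 in Pit1 dw/dw pools, against 8.35, 8.71, 8.17, 8.58 and 8.54 in Pit1 +/+ pools. Pit1 dw/dw pools 1 and 2 lay above every Pit1 +/+ pool and the other 3 lay within the Pit1 +/+ range. Hey1 averaged 8.72 ± 0.22 in Pit1 dw/dw and 8.47 ± 0.21 in Pit1 +/+ (SD, n = 5 each), a change of 0.25 ± 0.20 (SE; 95% interval -0.18 to 0.68; limma, adjusted p = 0.843). That SE includes the spread of the arrays not reported here, and it was 0.14 in a fit of only the 2 groups.

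Hes1, the best known Notch target of pituitary progenitors, read 2.96, 2.52, 2.80, 2.95 and 2.64 in Pit1 dw/dw pools, against 2.91, 2.85, 2.71, 3.09 and 3.13 in Pit1 +/+ pools. These levels stand next to the 2.31 to 2.84 of the bacterial TrpnX control probe sets, so its probe set says little about Hes1 RNA. The change was -0.16 ± 0.12 (SE; limma, adjusted p = 0.803). The mean signals of Hes1, Dll1, Dll3, Dll4, Maml2, Hes5 and Numbl were under the overall median of 4.37.

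Hes5 and Hey2, whose promoters hold the RBPJ core letters, had changes of -0.09 and -0.01. Hes5 was near the controls too, at 2.83 to 3.26 in Pit1 dw/dw pools and 2.56 to 3.67 in Pit1 +/+ pools. Hey2, a relative of Hey1 known from arteries and heart, averaged 7.64 ± 0.16 in Pit1 dw/dw and 7.65 ± 0.39 in Pit1 +/+ (SD, n = 5 each). Nrarp, a target that feeds back to damp Notch and whose window lacks those letters, had a change of -0.01 with an SD of 0.22 in Pit1 dw/dw and 0.23 in Pit1 +/+.

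Heyl, a relative of Hey1 known from vascular smooth muscle, read 6.34, 6.29, 6.83, 6.55 and 6.56 in Pit1 dw/dw pools, against 7.10, 6.53, 7.06, 7.04 and 5.54 in Pit1 +/+ pools. In Pit1 +/+, 3 pools lay above and pool 5 below all Pit1 dw/dw pools, and the change was -0.14 ± 0.33 (SE; limma, adjusted p = 0.971), the least precise of the members. Without Pit1 +/+ pool 5 it was -0.41. Hes6, a Hes family member known to promote neuronal differentiation, averaged 10.55 ± 0.11 in Pit1 dw/dw and 10.35 ± 0.23 in Pit1 +/+ (SD, n = 5 each), a change of 0.21.

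The 4 Deltex genes encode ubiquitin ligases that act on Notch. Dtx1 had the largest estimate of all members and is shown in full after its values were seen. It read 5.95, 6.45, 6.62, 6.57 and 5.96 in Pit1 dw/dw pools, against 6.26, 6.30, 5.99, 6.03 and 4.93 in Pit1 +/+ pools. Pools 2, 3 and 4 of Pit1 dw/dw lay above every Pit1 +/+ pool and pools 1 and 5 inside the Pit1 +/+ range, and the change was 0.41 ± 0.27 (SE; limma, adjusted p = 0.778). Without Pit1 +/+ pool 5 the Dtx1 change was 0.17, below that of Notch2 (0.31) and Notch3 (0.28) in the same fit. Dtx2, Dtx3 and Dtx4 had changes of -0.03, 0.02 and 0.02.

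Of the 35 members 25 have more than 1 probe set, 69 in all. In a fit over 34945 named probe sets, 0 of the 69 passed (limma; 2 at an unadjusted p under 0.05), beside 0.478% of all. Their changes ran from -0.40, a dim Rfng probe set (1421160_a_at, adjusted p = 0.408, the smallest of the 69), to 0.41, that of Dtx1. Of the 69 estimates 36 were above 0, and for 14 genes the probe sets differed in sign. For those 14 genes the sign of the estimate thus depended on the probe set chosen, and none of these estimates passed. Shares over all probe sets are not given here for the sign or the unadjusted p. These counts are therefore not read as a trait of the members.

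**Figure D3:**
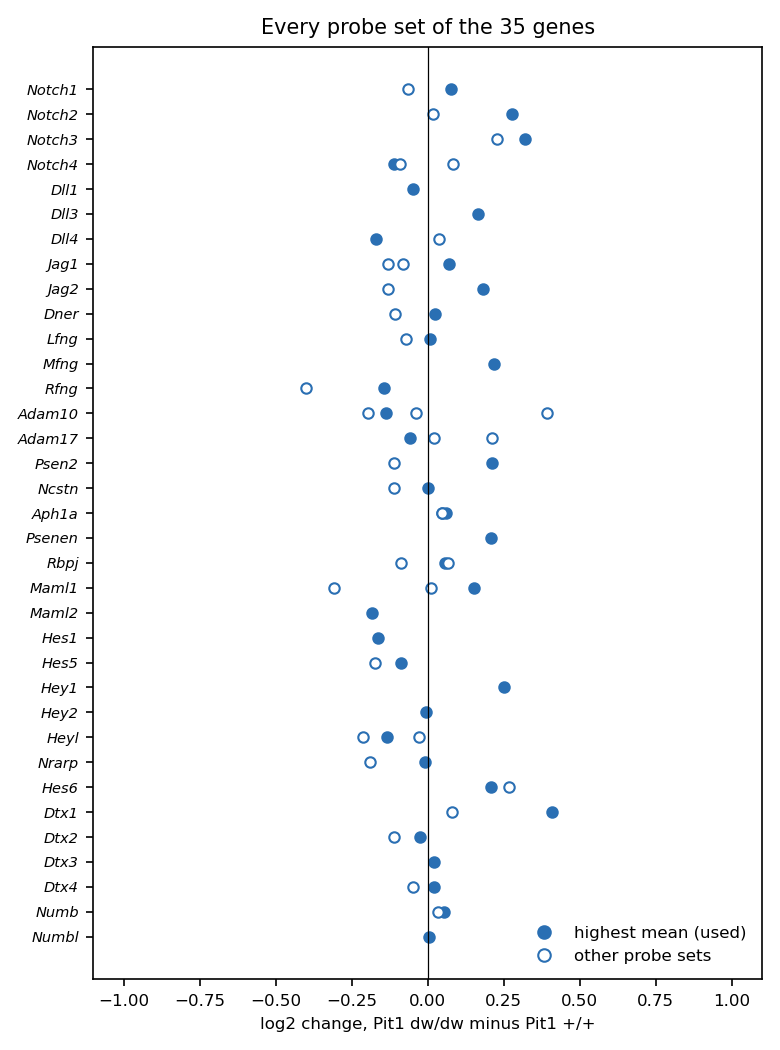
Log2 change (x axis) in Pit1 dw/dw minus Pit1 +/+ of all 69 probe sets of the 35 Notch pathway genes (rows, ordered by role); filled points are the probe sets with the highest mean, open points the others. Estimates run from -0.40 (Rfng) to 0.41 (Dtx1), and for 14 genes they lie on both sides of 0.

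The spread between pools was smaller in Pit1 dw/dw than in Pit1 +/+ for 27 of 35 members (77.1%), beside 68.6% of all genes. The median SD of the members was 0.17 in Pit1 dw/dw and 0.25 in Pit1 +/+, beside 0.20 and 0.26 over all genes. Without Pit1 +/+ pool 5 the median SD in Pit1 +/+ was 0.21 for the members and 0.19 over all genes. Of the 35 changes, 13 moved more when that pool was left out than when any other was, and without it they ran from -0.41 (Heyl) to 0.31 (Notch2), with a smallest adjusted p of 0.333 (limma). That pool was the lowest of its group for 15 of 35 members and for 40.4% of all genes. In Pit1 dw/dw, pool 5 was the lowest for 12 members, pool 2 for 11 and pool 4 for none, beside 21.9%, 20.8% and 12.8% of all genes. The mean over the 35 members was 7.06 to 7.22 in Pit1 dw/dw pools and 6.87 to 7.21 in Pit1 +/+ pools, with overlapping ranges.

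**Figure D4:**
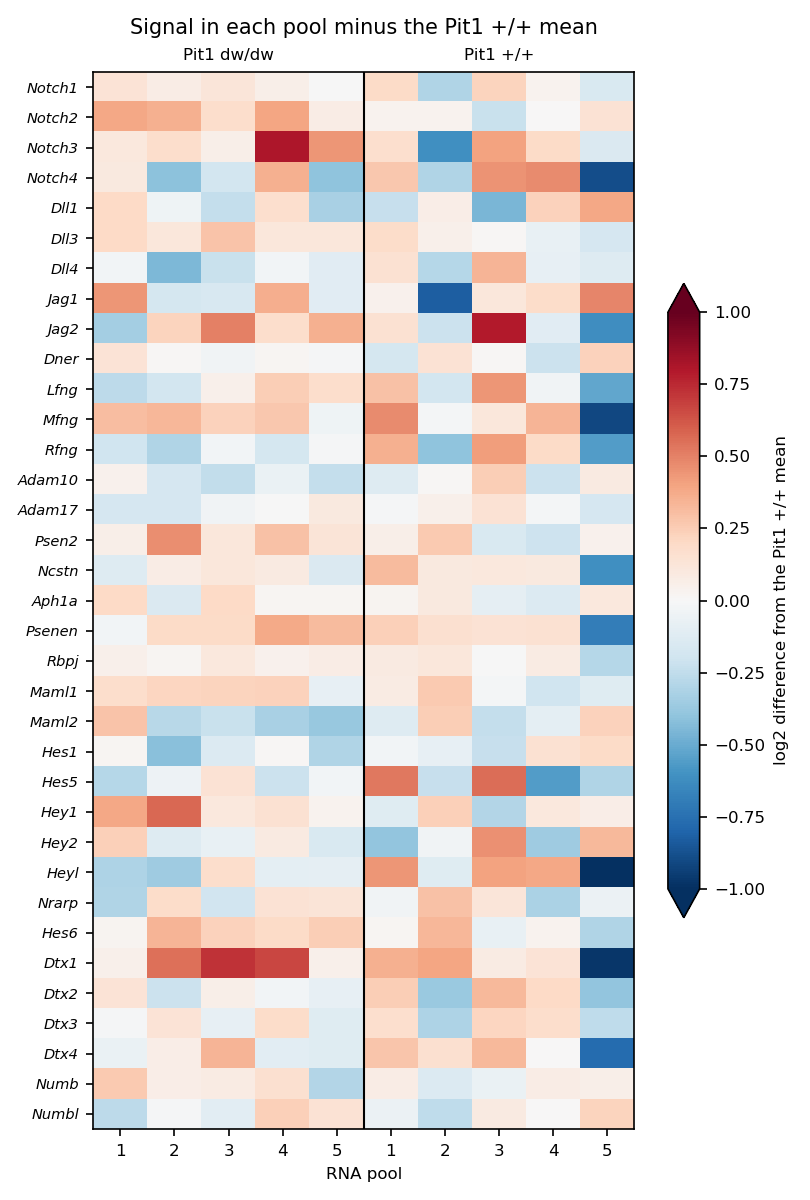
Difference of each pool's log2 RMA signal from the Pit1 +/+ mean (colour, red higher and blue lower, limits -1 to 1) for 35 Notch pathway genes (rows, ordered by role) in the 5 pools of Pit1 dw/dw and of Pit1 +/+. Notch3 is darkest red in Pit1 dw/dw pool 4 (8.87), and Pit1 +/+ pool 5 is the lowest of its group for 15 members.

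Other genes of the pathway gave the same count. Of 40 listed genes that are no members, such as ligand-activating ubiquitin ligases, the fucosyltransferase Pofut1, corepressors and coactivators, 35 were measured and 0 passed (limma), with a median change of -0.02. An unadjusted p under 0.05 was reached by 3 of the 35, where 8.46% of all genes reached it, and groups that did not overlap were found for 1 of the 35, where 2.78% of all genes had them, so both shares were near those of all genes. That gene was Tle4, a Groucho-family corepressor that works with Hes proteins. It read 9.77, 9.81, 9.85, 9.77 and 9.43 in Pit1 dw/dw pools, against 10.004, 10.41, 10.15, 10.02 and 10.23 in Pit1 +/+ pools. Every Pit1 dw/dw pool was thus below every Pit1 +/+ pool, with a change of -0.44 ± 0.11 (SE) that did not pass (limma, adjusted p = 0.107).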

How the data were processed

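Total RNA of pituitary pools, labelled as biotin cRNA, was hybridised to arrays, per the labels' protocols. The authors deposited log2 signals made with RMA, per the submitters' processing notes. No RMA version is given in the sources used here. RMA compresses differences between dim probe sets and makes the arrays' distributions alike. Samples were grouped by title. Of 45101 probe sets, 64 were controls, 34945 named 1 gene, 932 several and 9160 none. Symbols were matched by gene ID for 34741 and none changed. For each of 18193 genes, the probe set with the highest mean over the 15 arrays in the fit was used. Of these, 5 arrays helped to set the spread and are not reported here.

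Group means were fitted with limma 3.58.1 in R 4.3.3 (lmFit and eBayes, two-sided). Benjamini-Hochberg adjustment ran over the whole set of genes, with a threshold of 0.05. P-values measure the spread between pools. Values in every pool were given for members past the threshold and for Notch1, Notch2, Notch3, Notch4, Dll1, Jag1, Hes1 and Hey1. Values for Dtx1, Heyl and Tle4, and the dim Rfng probe set, were singled out after they were seen. The members and lists were chosen with earlier results of these data known. The alternatives covered normalisation, probe set choice and filters, the prior, array weights, the groups fitted, the replicate number and left-out pools, and 5 were added after the data were seen. Figures were drawn with matplotlib 3.10.9.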

Additional observations from a re-analysis of the deposited data

Results flagged for a closer look

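Among the 70 sets of 5 pools formed by 35 members and 2 groups, 6 had a pool far from the others by Dixon's criterion (8.57%), where chance gives about 1 in 20. The share over all genes on these arrays is not given here, so the count is not read as a trait of the members. In Pit1 dw/dw, pool 5 was low for Mfng (7.10, next 7.38) and Maml1 (7.88, next 8.14), and pool 1 was high for Maml2 (3.21, next 2.71). Pit1 +/+ pool 5 was low for Ncstn (4.18, next 4.89), Psenen (8.70, next 9.53) and Dtx1 (4.93, next 5.99). That pool was the lowest of its group for 40.4% of all genes.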

How the results depend on the processing

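No member passed under any of 24 alternatives, and none of the 202 alternatives run on the 8 members named by rule passed, of which 19 had the other sign. Their adjusted p-values ran from 0.099, for Notch2 with array weights (log2 change 0.29), upward. Hey1, Notch2 and Notch3 were above 0 in each alternative run on them, with changes of 0.12 to 0.35, 0.02 to 0.34 and 0.17 to 0.55. Hes1 was below 0 in each, with changes of -0.22 to -0.05. The alternatives reuse the same arrays, so a constant sign is no independent evidence of a change. Notch4 ran from -0.38 to 0.13, with -0.37 under array weights and 0.13 without the pools with Prph above 7. The count of all genes past the threshold moved more. It was 571 with array weights, 51 without the pools with Prph above 7 and 28 without those with Xist under 5, against 140 as reported. The Prph and Xist cuts were applied to all 15 arrays in the fit, so arrays not reported here could also be left out. Leaving out 1 pool at a time gave 83 to 161 genes. The count was 83 without Pit1 dw/dw pool 2, 93 without pool 4 and 90 without pool 5, and 86 without Pit1 +/+ pool 2 or 4. The cause of these shifts was not tested, beyond the smaller number of pools where pools were left out. Same-numbered pools did not all deviate together (5 correlations from -0.196 to 0.639, 3 of them over 0.1). So few correlations cannot show whether the numbers pair the pools, and the main fit did not pair them. With the replicate number as a block, 137 genes and 0 members passed (limma). Dim probe sets limit what can be seen of Hes1, Hes5 and the Delta ligands.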
